A study of Homo sapiens with 12 samples.

Results

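The nucleotide synthesis enzymes described here are the products of 9 genes, TK1, RRM1, RRM2, TYMS, DUT, CAD, PPAT, PAICS and GART, measured as mRNA in HCC827 cells, a line from a human non-small cell lung cancer that carries an activating EGFR mutation. They were chosen by gene symbol, and every probe that the platform annotation gives to one of the 9 symbols was taken. That gave 15 probes of the 48107 on the array: 6 genes had 1 probe each, and DUT, PAICS and GART had 3 each. All 15 probes passed the filter on detection, beside 18238 probes and 13577 genes in all. Where a gene had several probes, the one with the highest mean over the arrays is called its brightest probe and stands for the gene in counts.

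RNA was measured on 12 Illumina bead arrays in 4 groups of 3. DMSO monoculture was HCC827 grown alone with the vehicle, and gefitinib monoculture was HCC827 grown alone and given 0.5 µM gefitinib, an inhibitor of the EGFR kinase. Co-culture was HCC827 sharing medium with MRC-5 normal lung fibroblasts across inserts with 1 µm pores, with no drug named, and gefitinib co-culture was the same arrangement with 0.5 µM gefitinib. Per the labels' protocols, gefitinib was given after 24 h, the cells were washed 2 times with PBS, and co-culture then ran for 48 h in EMEM, whereas RPMI 1640 served for routine growth. The medium of the monoculture arms in those 48 h, and whether gefitinib was present in them, are not given in the sources used here. All groups are 1 cell line, and the labels do not say whether the 3 arrays of a group came from separate cultures, so p-values measure only the spread between these arrays, which may be technical.

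The 6 co-culture arrays stood apart from the 6 monoculture arrays in the deposited scanner data. Their rows were in another order, and their median scanner intensities, 105.5 to 109.7, did not overlap those of the monoculture arrays, 99.1 to 103. Co-culture and array set therefore cannot be told apart, whereas gefitinib was compared with no drug within each set. Any difference of medium between the cultures cannot be told apart from co-culture either. The share of probes detected per array was 43.4% to 46.5%, and arrays of 1 group correlated with r of 0.9921 to 0.9958 over the kept probes. All 6 epithelial markers (EPCAM, KRT8, KRT18, KRT19, CDH1 and ELF3) were detected on every array. Their summed normalized intensity was 24179 to 24870 in DMSO monoculture, 21832 to 22508 in gefitinib monoculture, 22459 to 23971 in co-culture and 19457 to 20145 in gefitinib co-culture. With gefitinib in monoculture, KRT18 and KRT8 each fell by 1.35 on the log2 scale (limma adjusted p = 2.58e-12 and 1.02e-11, brightest probes) and ELF3 rose by 0.39 (adjusted p = 0.000317), whereas EPCAM, KRT19 and CDH1 were not called. A second KRT18 probe was at -0.03 and not called, and a dimmer EPCAM probe was called lower (-0.25, limma adjusted p = 0.0301). With gefitinib in co-culture, KRT8 fell by 0.74 (limma adjusted p = 1.35e-05) and KRT18 by 0.42 (adjusted p = 0.00877). Of 11 fibroblast markers, 2 to 7 were detected per array, and COL3A1, THY1, PDGFRB, FAP and POSTN did not pass the filter on detection. The summed normalized intensity of those 11 markers was 3127 to 3161 in DMSO monoculture, 5576 to 6175 in gefitinib monoculture, 3454 to 3793 in co-culture and 3222 to 3694 in gefitinib co-culture, so that it was highest in a group grown without fibroblasts. In gefitinib monoculture, 4 of the 6 kept fibroblast markers rose against DMSO, namely VIM, COL5A1, LUM and COL1A1, by 0.53 to 1.13 on the log2 scale (limma adjusted p at most 7.87e-05). VIM was the brightest of the kept ones in every group and so weighs most in the sum. In co-culture against monoculture without drug, VIM was higher (0.34, limma adjusted p = 0.0214), and CDH1 (-0.36, adjusted p = 0.0179) and KRT19 (-0.30, adjusted p = 0.0210) were lower. No other marker was called there on its brightest probe. A dimmer EPCAM probe was higher (0.53, limma adjusted p = 0.000284), and a dimmer VIM probe was not called. The part of these marker shifts in the results below was not tested.

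Cells build nucleotides from small precursors (de novo synthesis) or recover them from nucleosides and bases (salvage). PPAT, PAICS and GART act in de novo purine synthesis, and CAD carries the opening steps of de novo pyrimidine synthesis. RRM1 and RRM2, the large and small subunits of ribonucleotide reductase, turn ribonucleotides into deoxynucleotides. TYMS makes thymidylate from dUMP, DUT hydrolyses dUTP to dUMP and so keeps uracil out of DNA, and TK1 recovers thymidine. The deoxynucleotide enzymes are known as genes transcribed around the entry into S phase, many of them under E2F factors, whereas purine synthesis genes and CAD are known as MYC targets. TYMS and GART are also targets of antifolate drugs used against lung cancer.

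Promoter letters are shown first for the genes whose mRNA moved most and for the pair of purine genes that share a promoter. The sequences are those of RefSeq on GRCh38.p14, 250 bases before a transcript start, written 5′ to 3′ on the gene's strand. All 9 members were found in that table, with 1 to 4 starts each. Capitals mark matches, on either strand, to an E2F word (TTTCCCGC, TTTCGCGC, TTTGCCGC or TTTGGCGC), to CCAAT, or to the E-box CACGTG. The E2F words, CCAAT and the E-box share no letters in the matches shown. TK1 lies at chr17:78174079-78187204 on the minus strand, TYMS at chr18:657653-673578, RRM2 at chr2:10122568-10211010 and DUT at chr15:48331095-48343373, each on the plus strand.
TK1, chr17:78187053-78187302: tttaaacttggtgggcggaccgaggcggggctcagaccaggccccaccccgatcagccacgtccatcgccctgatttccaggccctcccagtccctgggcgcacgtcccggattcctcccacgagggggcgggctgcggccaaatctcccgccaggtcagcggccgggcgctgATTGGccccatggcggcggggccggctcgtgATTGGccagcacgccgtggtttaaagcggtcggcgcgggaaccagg
TYMS, chr18:657403-657652: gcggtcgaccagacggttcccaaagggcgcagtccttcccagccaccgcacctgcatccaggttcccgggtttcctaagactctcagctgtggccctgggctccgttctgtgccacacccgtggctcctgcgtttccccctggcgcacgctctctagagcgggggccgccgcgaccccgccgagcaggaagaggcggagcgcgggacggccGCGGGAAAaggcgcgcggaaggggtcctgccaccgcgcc
RRM2, chr2:10122489-10122738: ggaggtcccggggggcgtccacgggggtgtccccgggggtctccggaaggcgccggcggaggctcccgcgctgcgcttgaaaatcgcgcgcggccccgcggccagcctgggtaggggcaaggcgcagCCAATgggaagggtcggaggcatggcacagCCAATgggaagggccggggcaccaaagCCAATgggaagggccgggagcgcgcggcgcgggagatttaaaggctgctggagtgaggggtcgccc
DUT, chr15:48331947-48332196: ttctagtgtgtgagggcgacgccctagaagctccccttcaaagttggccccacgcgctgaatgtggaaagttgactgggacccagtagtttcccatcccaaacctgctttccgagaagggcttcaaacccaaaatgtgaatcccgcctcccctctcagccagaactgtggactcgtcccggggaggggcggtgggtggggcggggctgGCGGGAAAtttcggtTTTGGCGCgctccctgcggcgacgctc
An E2F word began 39 bases before the TYMS start, and 2 such words lay 42 and 27 bases before this DUT start. The windows of the other DUT starts, not shown, held no E2F word. No match to these words lay in the windows shown for TK1 and RRM2, which held CCAAT at 77 and 46 bases, and at 123, 93 and 66 bases, before the start. Among all 9 members, E2F words were found before a start of TYMS, DUT and GART, against 3.4% of 27305 genes and 2.79% of 35116 windows in the whole table. A gene counted if any of its starts had a match, and the GART word lay 245 bases before 1 of its 3 starts. DUT with 4 starts and GART with 3 therefore had more windows searched than genes with 1. CCAAT was found for 5 members (TK1, RRM1, RRM2, CAD and GART), against 37.0% of genes and 32.0% of windows. The CHR word TTTGAA, searched on both strands and left in lower case, was found for RRM1 and DUT, against 16.1% of genes and 13.3% of windows. These matches describe letters and are not evidence of binding, and the DUT probes are not tied here to any of the gene's 4 starts.

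PPAT (chr4:56393362-56435615, minus strand) and PAICS (chr4:56410507-56464578, plus strand) are transcribed away from each other, and 136 bases separate the PPAT start from one of the 3 PAICS starts. That interval, on the plus strand, held none of the words above. An E-box lay 40 bases past this PAICS start, which is 182 bases before the PPAT start, and it is shown in a 30-base piece of the same strand. An E-box was found in 6.34% of windows and for 7.73% of genes, and for PPAT alone among the 9 members.
PPAT to PAICS, chr4:56435616-56435751: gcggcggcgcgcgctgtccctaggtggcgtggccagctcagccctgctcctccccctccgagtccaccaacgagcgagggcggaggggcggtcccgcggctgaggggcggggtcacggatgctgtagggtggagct
E-box piece, chr4:56435772-56435801: ctggaaagctgtatttgctgCACGTGgaaa

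Gefitinib in monoculture answered how the drug acted on HCC827 alone. mRNA of 8 of the 9 genes fell, and CAD, the remaining gene, did not pass the test. All 5 deoxynucleotide genes fell, by 1.04 to 1.81 on the log2 scale of normalized intensity, with a median change of -1.22. Of the 4 de novo genes, GART, PPAT and PAICS fell by 0.38 to 0.40, and the median change over the 4 was -0.38. The median change of all kept probes was 0.00, and 15% of them were called lower and 17.1% higher, with 32.1% called in either direction (limma, Benjamini-Hochberg adjusted p under 0.05 over 18238 probes). Changes of 1 log2 unit or more downwards were seen for 263 kept probes, 1.44% of all. RNA came from whole cultures, so fewer cells with an mRNA and less mRNA per cell cannot be told apart.

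TK1, the cytosolic thymidine kinase, had normalized intensities of 1026, 1139 and 1007 in DMSO monoculture and of 296, 301 and 308 in gefitinib monoculture. The groups were far apart and the gefitinib arrays lay close together. On the log2 scale the level went from 10.04 ± 0.096 to 8.24 ± 0.030 (SD, n = 3 each), a change of -1.81 ± 0.079 (SE) with a limma adjusted p of 3.70e-16. That is a 3.50-fold lower intensity, and it placed TK1 at rank 36 of 18238 probes ordered from the largest fall.

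TYMS, thymidylate synthase, had intensities of 1183, 1310 and 1214 with DMSO and of 436, 386 and 453 with gefitinib. The groups did not overlap, and the change was -1.54 ± 0.080 (SE, limma adjusted p = 9.97e-15), a 2.91-fold fall that left 34.3% of the DMSO intensity. DUT, the dUTPase upstream of thymidylate, had intensities of 446, 431 and 467 with DMSO and 196, 199 and 190 with gefitinib on its brightest probe, again with no overlap. Its change was -1.20 ± 0.087 (SE, limma adjusted p = 9.30e-12).

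RRM2, the small subunit of ribonucleotide reductase, whose level is known to vary over the cell cycle, gave 328, 322 and 313 with DMSO and 136, 146 and 132 with gefitinib. The gefitinib arrays came near the median of all probes on an array, which was about 104. The change was -1.22 ± 0.089 (SE, limma adjusted p = 1.18e-11), a 2.33-fold fall. RRM1, the large subunit, gave 1885, 2177 and 2099 with DMSO and 975, 963 and 1049 with gefitinib, without overlap. It fell by 1.04 ± 0.086 on the log2 scale (SE, limma adjusted p = 1.38e-10), which left 48.5% of the DMSO intensity.

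**Figure D1:**
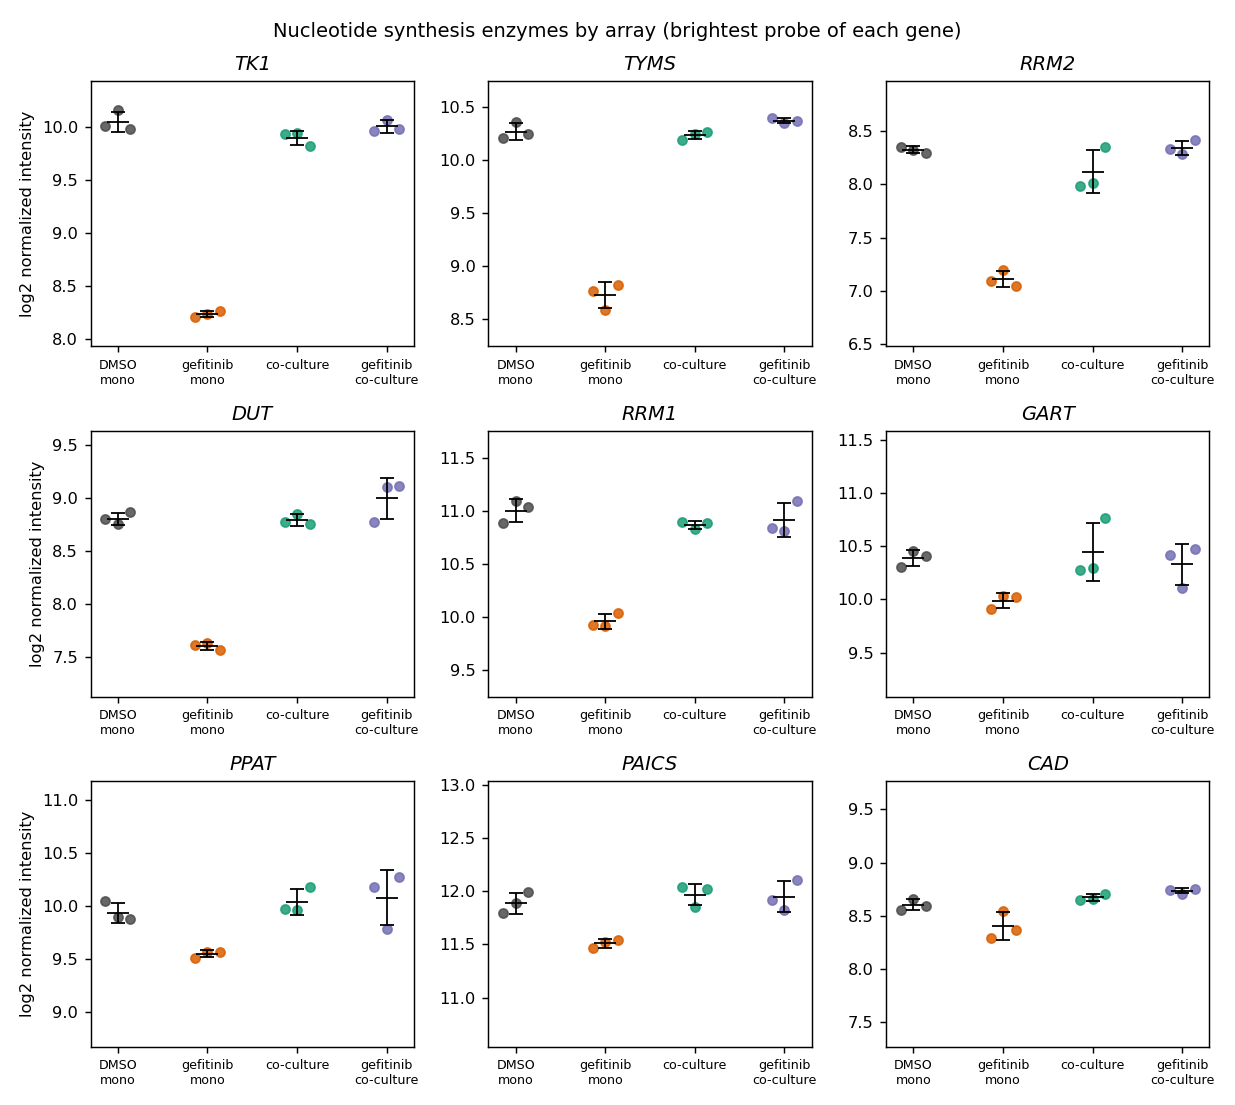
Log2 normalized intensity (y axis, every panel with the same span) of the brightest probe of each gene, by group (x axis); points are single arrays, and bars are the mean and SD of 3 arrays. Gefitinib monoculture is the lowest group in each panel, by 1.04 to 1.81 against DMSO monoculture for TK1, TYMS, RRM2, DUT and RRM1 and by 0.20 to 0.40 for GART, PPAT, PAICS and CAD.

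The authors' normalized values were not background subtracted, so changes of dim probes were compressed. With background-corrected scanner values (limma's neqc) the log2 change in monoculture was -2.15 for TK1, -1.75 for TYMS, -2.11 for RRM2, -1.70 for DUT and -1.11 for RRM1. The fall of RRM2 thus moved from 1.22 to 2.11 on the log2 scale, more than for any other gene among the 9. The de novo genes moved little, with -0.43 for GART, -0.43 for PPAT, -0.41 for PAICS and -0.27 for CAD. The order among the 5 deoxynucleotide genes therefore depends on the treatment of background, but each of them fell further than each de novo gene with both kinds of value.

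**Figure D2:**
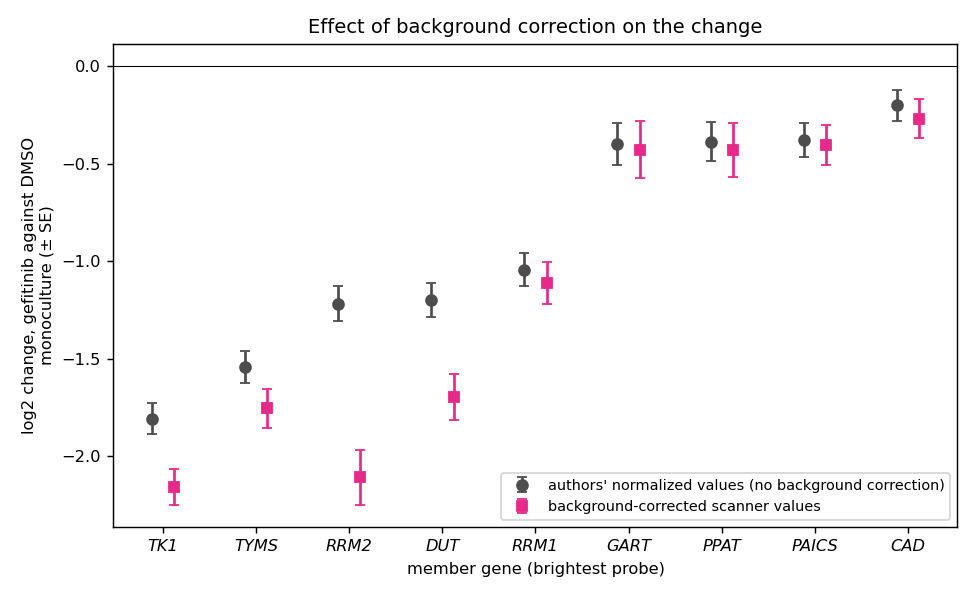
Log2 change of gefitinib against DMSO in monoculture (y axis, bars are ± SE from limma, n = 3 arrays per group) for the brightest probe of each gene (x axis), from the authors' normalized values (circles) and from background-corrected scanner values (squares). RRM2 moves from -1.22 to -2.11 and DUT from -1.20 to -1.70, whereas PPAT, PAICS, GART and CAD stay within 0.07 of their first value.

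PPAT, the amidotransferase of the committed step of purine synthesis, had intensities of 1054, 949 and 937 with DMSO and of 728, 758 and 758 with gefitinib. The groups did not overlap, and the fall was 0.39 ± 0.10 on the log2 scale (SE, limma adjusted p = 0.00315). PAICS, which joins the carboxylase and SAICAR synthetase activities of the pathway, had 3545, 3785 and 4070 with DMSO and 2821, 2949 and 2987 with gefitinib on its brightest probe. This change was -0.38 ± 0.087 (SE, limma adjusted p = 0.00102), without overlap between the groups. PPAT and PAICS, the pair with the shared promoter region, thus kept 76.4% and 76.9% of their DMSO intensity. GART, outside that pair, kept 75.7%.

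GART, which holds several activities of purine synthesis in 1 protein, gave 1265, 1408 and 1357 with DMSO and 960, 1047 and 1043 with gefitinib. Its change was -0.40 ± 0.11 (SE, limma adjusted p = 0.00434), and the groups did not overlap. CAD gave 376, 404 and 386 with DMSO and 314, 373 and 329 with gefitinib. All gefitinib arrays lay below all DMSO arrays, yet the change of -0.20 ± 0.080 (SE) had a limma adjusted p of 0.0549 and was not called. Without gefitinib monoculture replicate 2, its highest gefitinib array, the change was -0.27 with a limma adjusted p of 0.0167.

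The 3 genes with several probes did not give 1 answer from every probe. For DUT, a second probe (ILMN_2374778) also fell, by 1.06 ± 0.080 (SE, limma adjusted p = 2.01e-11), from 325, 345 and 333 to 159, 168 and 153. The dimmest DUT probe (ILMN_1721008) went the other way, with intensities of 139, 121 and 127 under DMSO and 144, 160 and 155 under gefitinib. Its change was 0.25 ± 0.083 (SE, limma adjusted p = 0.0238). The probe was detected on every array, and with background-corrected values its change was 0.56 (limma adjusted p = 0.0275). The call on that probe was lost without DMSO monoculture replicate 2 (adjusted p = 0.124) or 3 (0.0665) and without gefitinib monoculture replicate 2 (0.0990) or 3 (0.0659), all by limma. The platform annotation gives this probe and the brightest one to the same gene, and which transcripts each reads was not tested.

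For PAICS, a second bright probe (ILMN_2392546) fell by 0.48 ± 0.082 (SE, limma adjusted p = 3.83e-05). The third (ILMN_2286106) was detected on 4 of 12 arrays, none of them in gefitinib monoculture, and was not called (-0.11, limma adjusted p = 0.350). For GART, the second probe (ILMN_1793220) fell by 0.41 ± 0.096 (SE, limma adjusted p = 0.00145), with 377, 408 and 382 against 245, 331 and 312. The third (ILMN_1800020) was detected on 5 of the 6 monoculture arrays and on 0 of the 6 co-culture arrays, and was not called (0.04, limma adjusted p = 0.757). Over all 15 probes, 11 were lower, 1 was higher and 3 were not called, and those not called were the CAD probe and the dimmest probes of PAICS and GART.

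**Figure D3:**
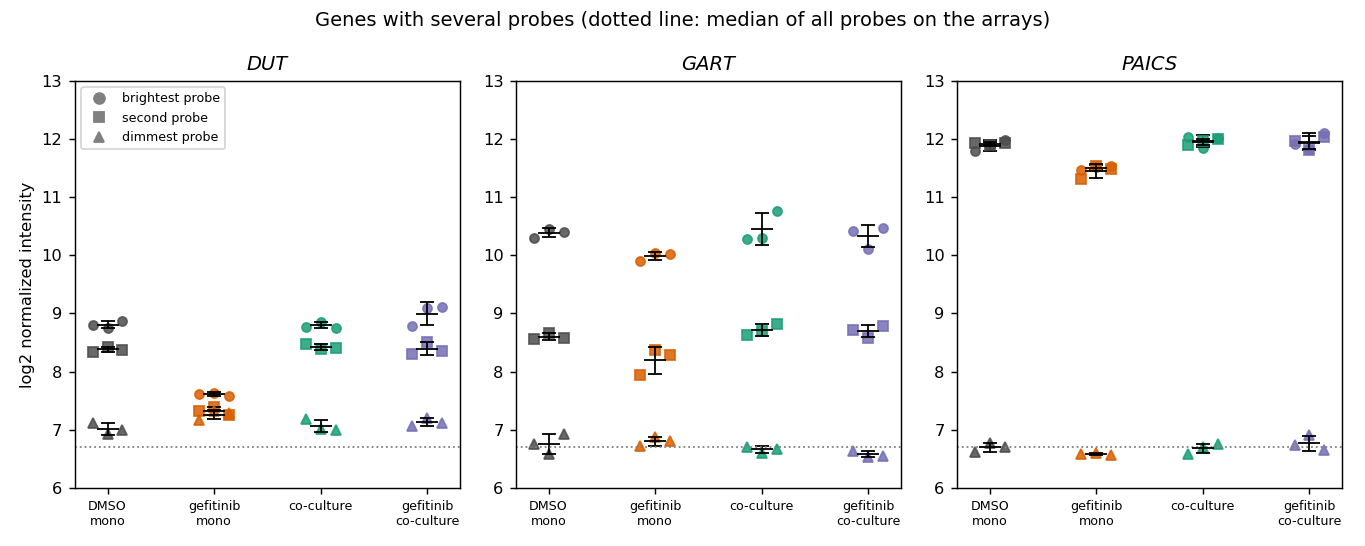
Log2 normalized intensity (y axis) by group (x axis) for the 3 probes each of DUT, GART and PAICS; points are arrays, bars are the mean and SD of 3 arrays, marker shape gives the probe, and the dotted line is the median of all probes. The dimmest probe of each gene lies near the dotted line in every group, and the brighter probes of each gene are lowest in gefitinib monoculture.

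Gefitinib in co-culture asked for the same effect in cells that shared medium with fibroblasts. None of the 9 genes was called, against 2.11% of all probes called in either direction, of which 1.28% were lower and 0.828% higher (limma, 385 of 18238). The log2 changes ran from -0.11 for GART to 0.23 for RRM2, with a median of 0.06. At an unadjusted limma p under 0.05, 2 genes passed, RRM2 and DUT, against 2112 of 18238 probes. With background-corrected values 0 genes were called, against 212 probes. The 95% intervals of the 9 changes lay between -0.34 and 0.41, so that falls of the size seen for the 5 deoxynucleotide genes in monoculture lay outside them.

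TK1 had intensities of 977, 982 and 903 in co-culture and of 996, 1073 and 1009 in gefitinib co-culture, and the change of 0.11 ± 0.079 (SE) had a limma adjusted p of 0.678. The drug-treated arrays here lay at the level of untreated cells, not at that of gefitinib monoculture. TYMS had 1169, 1218 and 1234 in co-culture and 1351, 1306 and 1320 with the drug, with a change of 0.14 ± 0.080 (SE, limma adjusted p = 0.559). For both TK1 and TYMS all drug-treated arrays lay above all co-culture arrays without it, yet neither gene was called. The share of all probes with such separation is not given here. RRM1 had 1904, 1815 and 1892 in co-culture and 1832, 1790 and 2186 with the drug, and these arrays overlapped. Its change was 0.04 ± 0.086 (SE, limma adjusted p = 0.908).

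RRM2 had uneven co-culture arrays, at 254, 259 and 327 without the drug and 322, 313 and 342 with it. Replicate 3 of co-culture stood above the other two and overlapped the drug-treated arrays. The change was 0.23 ± 0.089 (SE, limma adjusted p = 0.271), and without that array it was 0.34 (limma adjusted p = 0.0357). The brightest DUT probe had 437, 463 and 432 in co-culture and 439, 550 and 554 with the drug, a change of 0.20 ± 0.087 (SE, limma adjusted p = 0.327). Its second probe changed by -0.03, so the probes of DUT differed in sign here and neither was called.

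Among the de novo genes, PAICS had 4201, 3695 and 4156 in co-culture and 3867, 3630 and 4425 with the drug, a change of -0.02 ± 0.087 (SE, limma adjusted p = 0.965). GART had 1244, 1257 and 1738 in co-culture and 1366, 1105 and 1419 with the drug, and replicate 3 of co-culture was its highest array of all 12. The spread within both groups exceeded the difference between them, which was -0.11 ± 0.11 (SE, limma adjusted p = 0.758). PPAT had 1001, 994 and 1158 against 1161, 878 and 1231, and CAD had 402, 404 and 418 against 429, 417 and 431, with changes of 0.04 and 0.06 that were not called.

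**Figure D4:**
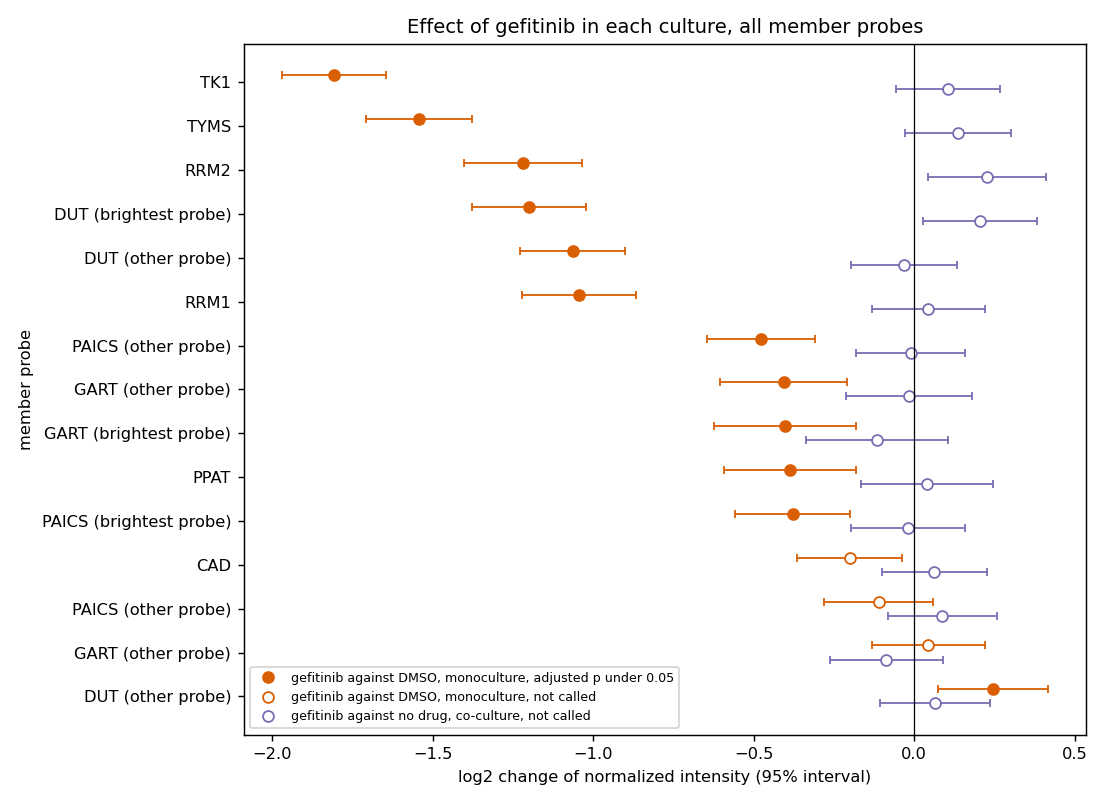
Log2 change of normalized intensity with gefitinib (x axis, bars are 95% intervals from limma, n = 3 arrays per group) for all 15 member probes (y axis), in monoculture (orange) and in co-culture (purple); filled points had an adjusted p under 0.05. In monoculture 11 probes are filled on the left of 0 and 1 DUT probe on the right, and in co-culture all 15 are open, between -0.11 and 0.23.

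The difference between the 2 effects of gefitinib was tested as an interaction within the same limma fit, in which each effect is taken within its own array set. The effect was more positive in co-culture for 7 of the 9 genes, against 9.09% of all probes higher, 10.6% lower and 19.7% in either direction. All 5 deoxynucleotide genes passed, with TK1 at 1.91 ± 0.11 (SE, limma adjusted p = 1.25e-12), TYMS at 1.68 ± 0.11 and RRM2 at 1.44 ± 0.13 on the log2 scale. DUT followed at 1.40 ± 0.12 on its brightest and 1.03 ± 0.11 on its second probe, and RRM1 at 1.09 ± 0.12 (SE, limma adjusted p = 1.39e-07). These 5 genes passed in every alternative processing and with any single array left out.

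The de novo genes passed only in part. PPAT differed by 0.43 ± 0.14 (SE, limma adjusted p = 0.0315) and PAICS by 0.36 ± 0.12 on its brightest probe (adjusted p = 0.0369) and 0.47 ± 0.12 on its second (adjusted p = 0.00423). GART was called on its second probe only (0.39 ± 0.14, limma adjusted p = 0.0425), not on its brightest (0.29 ± 0.15, adjusted p = 0.208), and CAD was not called (0.26 ± 0.11, adjusted p = 0.105). With background-corrected values the limma adjusted p was 0.128 for PPAT, 0.0976 for the brightest PAICS probe and 0.115 for the second GART probe, so these calls were lost, whereas the second PAICS probe kept its call at 0.0297. With no filter on dim probes the brightest PAICS probe (limma adjusted p = 0.0502) and the second GART probe (0.0561) lost their calls as well.

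Single arrays decided several of these calls. The PPAT call was lost without DMSO monoculture replicate 1, without any of the 3 gefitinib monoculture arrays, without replicate 1 or 2 of co-culture, and without replicate 1 or 3 of gefitinib co-culture, with values of 0.33 to 0.44 on the log2 scale. The brightest PAICS probe lost its call without DMSO monoculture replicate 2 or 3, gefitinib monoculture replicate 1 or 2, gefitinib co-culture replicate 3 or co-culture replicate 2, with values of 0.28 to 0.37. The second GART probe lost its call without any DMSO monoculture array, gefitinib monoculture replicate 1, replicate 1 or 2 of co-culture, or replicate 1 or 3 of gefitinib co-culture, and was 0.26 without the gefitinib monoculture array. Conversely, without co-culture replicate 3 the brightest GART probe was at 0.45 (limma adjusted p = 0.0184), and without gefitinib monoculture replicate 2 CAD was at 0.34 and called.

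Co-culture against monoculture without drug showed no called change in the 9 genes, against 6.35% of all probes in either direction (limma, 3.02% higher and 3.33% lower). The log2 differences ran from -0.21 for RRM2 to 0.10 for PPAT, and only RRM2 passed at an unadjusted p under 0.05, whereas 0 genes were called with background-corrected values. RRM2 gave 328, 322 and 313 in DMSO monoculture and 254, 259 and 327 in co-culture. Without co-culture replicate 3, the highest of them, RRM2 was called lower in co-culture (-0.32, limma adjusted p = 0.0251). TK1 lay at 1026, 1139 and 1007 against 977, 982 and 903, without overlap, but its difference of -0.15 ± 0.079 (SE) had a limma adjusted p of 0.319.

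Under gefitinib, all 9 genes were higher in co-culture than in monoculture, against 15.4% of all probes higher, 20.7% lower and 36.1% in either direction (limma). TK1 was higher by 1.77 ± 0.079, TYMS by 1.64 ± 0.080, DUT by 1.39 ± 0.087, RRM2 by 1.24 ± 0.089 and RRM1 by 0.95 ± 0.086 (SE) on the log2 scale. In linear terms TK1 stood at 340% and RRM1 at 194% of the level in gefitinib monoculture. PPAT was higher by 0.53, PAICS by 0.44, GART by 0.34 and CAD by 0.33, with the highest limma adjusted p, 0.0127, for GART. This comparison shares the gefitinib monoculture arrays with the first one and crosses the array sets, so the side-by-side values are not separate evidence.

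The GART call under gefitinib was lost with background-corrected values (limma adjusted p = 0.0716), with the mean of its probes in place of the brightest (0.21, adjusted p = 0.0540), and without gefitinib monoculture replicate 1 (0.30, adjusted p = 0.0598), gefitinib co-culture replicate 1 (0.30, adjusted p = 0.0587) or 3 (0.27, adjusted p = 0.0785). The dimmest GART probe was called lower (-0.23, limma adjusted p = 0.0405). That call was lost with background-corrected values (limma adjusted p = 0.0539), with no filter on dim probes (0.0568), and without gefitinib monoculture replicate 2 or 3 or replicate 2 or 3 of gefitinib co-culture (0.0837 to 0.154). This probe was not above background on any co-culture array. It passed the filter on detection through monoculture arrays alone, where it was higher, so its call is not separate support. Its mean in gefitinib monoculture was 1.11-fold the bound in gefitinib co-culture, with values near background and across the array sets. That bound is the higher of the probe's own value and the lowest value among detected probes on each array.

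Gefitinib co-culture was last set beside DMSO monoculture, the untreated cells grown alone. None of the 9 genes was called, against 6.08% of all probes in either direction (limma, 2.71% higher and 3.37% lower), and 1 gene, DUT, passed at an unadjusted p under 0.05. With background-corrected values 0 genes were called. The log2 differences lay between -0.09 for RRM1 and 0.19 for DUT, and their 95% intervals between -0.28 and 0.37. Without gefitinib co-culture replicate 1, DUT was 0.30 higher (limma adjusted p = 0.0447). In the order of levels, gefitinib monoculture was thus the lowest group for each of the 9 genes, and the other 3 groups lay within 0.23 log2 units of each other with no called difference among them.

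The rest of the pathway was covered by 5 lists with 48 genes, of which 43 had a kept probe. In gefitinib monoculture 18 of the 43 were lower and 5 were higher, against the 15% and 17.1% of all probes given above, and the median change was -0.09. In gefitinib co-culture 3 of the 43 were lower and 0 higher, against 1.28% and 0.828% of all probes, with a median of -0.02. Under gefitinib 18 were higher and 5 lower in co-culture than in monoculture, against 15.4% and 20.7% of all probes. In the interaction 17 were higher and 5 lower, against 9.09% and 10.6%. Without drug, 2 were higher and 2 lower in co-culture, against 3.02% and 3.33%. Set beside DMSO monoculture, 1 was higher and 3 lower in gefitinib co-culture, against 2.71% and 3.37%. The lists were chosen with earlier results of these data known, so their counts describe and do not support the members' direction.

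Of 10 other genes of deoxynucleotide and thymidylate supply, 5 fell with gefitinib in monoculture and 0 rose, with a median change of -0.16. SHMT1, the cytosolic serine hydroxymethyltransferase that supplies one-carbon units for thymidylate, fell by 1.35 on the log2 scale (limma adjusted p = 2.11e-13), and NUDT1, which hydrolyses oxidized purine nucleotides, fell by 1.18 (adjusted p = 1.75e-12). DCK, the deoxycytidine kinase, fell by 0.55 (limma adjusted p = 4.66e-05), and DCTPP1, a dCTP pyrophosphatase, fell by 0.38 (adjusted p = 0.000275). In co-culture none of these 10 genes was called for gefitinib, and SHMT1 was lower in gefitinib co-culture than in DMSO monoculture (-0.30, limma adjusted p = 0.0242).

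Of 9 other genes of de novo purine synthesis and interconversion, 4 fell, 1 rose and 4 were not called in gefitinib monoculture, with a median change of -0.17. GMPS, the GMP synthetase, fell by 0.58 (limma adjusted p = 5.90e-05), IMPDH1, an IMP dehydrogenase, fell by 0.50 (adjusted p = 4.91e-06), and PFAS, which follows GART's transformylase step, fell by 0.48 (adjusted p = 7.15e-05). ADSS1, an adenylosuccinate synthase known from muscle, rose by 0.44 (limma adjusted p = 0.000197). These are brightest probes, and the dimmer probes of IMPDH1 (-0.18, -0.11 and 0.19) and of ADSS1 (0.003 and 0.03) were not called. On brightest probes, PRPS1, which makes the ribose phosphate donor, was the member of the list called between the cultures without drug (-0.25, limma adjusted p = 0.0461). The dimmer PRPS2 probe was also lower in co-culture there (-0.30, limma adjusted p = 0.0247), whereas the brightest was not called (-0.09, adjusted p = 0.660).

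Of 7 other genes of de novo pyrimidine synthesis, 2 fell and 1 rose, with a median of -0.02. The CTP synthases went in opposite directions in gefitinib monoculture, with CTPS1 at -0.54 (limma adjusted p = 1.47e-05) and CTPS2 at 0.83 (adjusted p = 1.10e-08). NME1, a nucleoside diphosphate kinase, fell by 0.48 (limma adjusted p = 2.22e-05), and DHODH, the mitochondrial step after CAD, was at -0.06 and not called. CMPK1, a UMP/CMP kinase, was higher in gefitinib co-culture than in DMSO monoculture by 0.40 (limma adjusted p = 0.00844).

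Of 10 salvage genes, 6 fell and 2 rose in gefitinib monoculture, and the median change was -0.41. UPP1, uridine phosphorylase, fell by 1.11 (limma adjusted p = 9.33e-11), and PNP, purine nucleoside phosphorylase, fell by 1.01 (adjusted p = 2.63e-11). HPRT1, which recovers hypoxanthine and guanine, fell by 0.77 (limma adjusted p = 4.75e-09), and CDA, cytidine deaminase, fell by 0.76 (adjusted p = 2.45e-07). ADA, adenosine deaminase, rose by 0.73 (limma adjusted p = 2.02e-08) and TYMP, thymidine phosphorylase, rose by 0.45 (adjusted p = 0.000240). Of 7 kept genes of nucleotide breakdown, 1 fell and 1 rose, with NT5E, the ecto-enzyme that makes adenosine from AMP, at -1.34 (limma adjusted p = 3.55e-12) and the cytosolic nucleotidase NT5C2 at 0.43 (adjusted p = 0.000193).

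The 3 listed genes that fell with gefitinib in co-culture were NT5E by 0.80 (limma adjusted p = 1.82e-06), UPP1 by 0.64 (adjusted p = 3.59e-05) and CDA by 0.38 (adjusted p = 0.0251). The first is an enzyme of breakdown and the other two of salvage. NT5E and UPP1 were higher in co-culture than in monoculture without drug, by 0.75 (limma adjusted p = 3.39e-06) and 0.34 (adjusted p = 0.0214), and TYMP was lower (-0.34, adjusted p = 0.0200). The fall of each of the 3 was still smaller in co-culture than in monoculture by the interaction, at 0.55 for NT5E, 0.47 for UPP1 and 0.38 for CDA (limma adjusted p = 0.00293, 0.00839 and 0.0434).

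**Figure D5:**
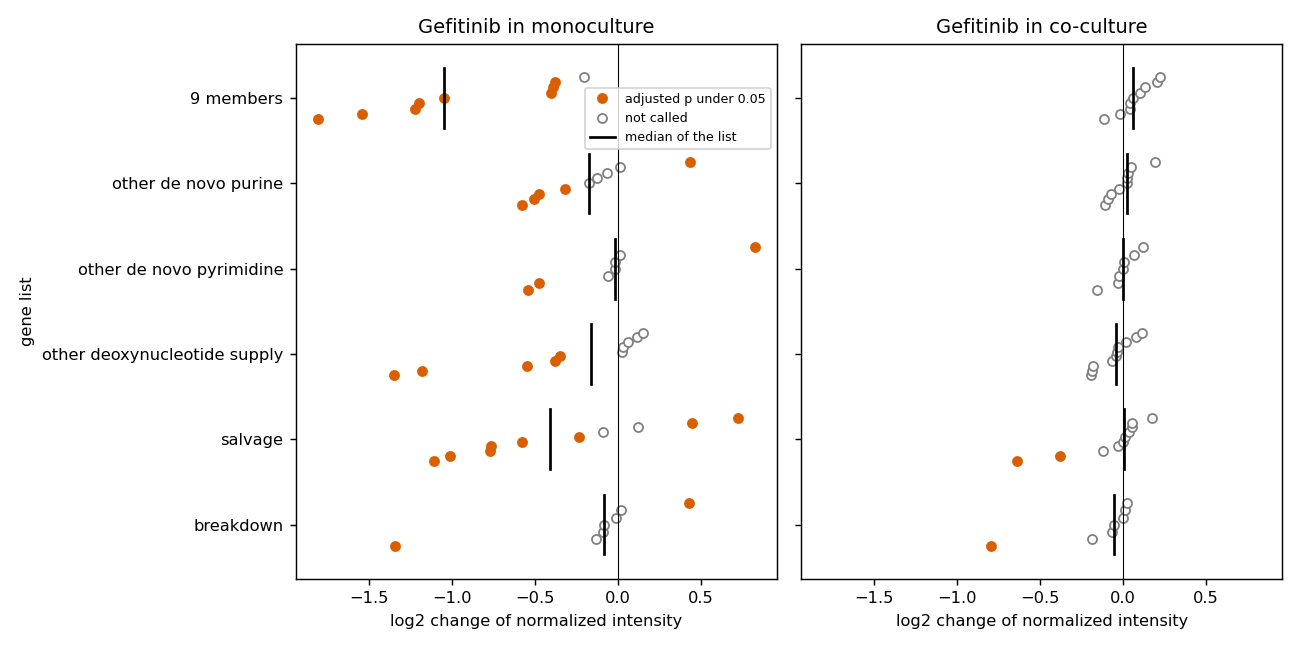
Log2 change with gefitinib (x axis) in monoculture (left) and in co-culture (right) for the 9 members and the 43 kept genes of 5 other lists (y axis); each point is a gene, filled where the adjusted p was under 0.05, and the vertical bar is the list's median. In monoculture 8 members and 18 of the other genes are filled on the left of 0 and 5 on the right, and in co-culture 3 genes are filled, NT5E, UPP1 and CDA.

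The genes whose profile over the 12 arrays was most like that of a member were found by the root mean square difference of log2 values, each centred on its own mean. For TK1 they were PCLAF, a PCNA-binding factor, BIRC5, the survivin of the chromosomal passenger complex, NCAPG, a condensin subunit, and CDCA5, the cohesin regulator sororin, at 0.074 to 0.092 log2 units. The root mean square deviation of TK1 from its own mean was 0.76, and its median difference from all kept probes was 0.77. For RRM1 they were LDHA, lactate dehydrogenase A, H2AZ1, a histone variant, FBXO5, an inhibitor of the anaphase-promoting complex, and CKAP2, a spindle protein, at 0.079 to 0.097.

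For PAICS the most similar profiles were those of MRM2, a mitochondrial ribosomal RNA methyltransferase, SRSF2, a splicing factor, CRY1, a clock protein, and LYRM7, a complex III assembly factor, at 0.037 to 0.060 log2 units. For CAD they were POLD2 and POLA1, subunits of DNA polymerases delta and alpha, PWP1 and TBL2, at 0.039 to 0.058. The deviations of PAICS and CAD from their own means were 0.21 and 0.14, and their median differences from all kept probes were 0.24 and 0.19. The profiles near TK1 fell by 1.72 to 1.87 on the log2 scale with gefitinib in monoculture, and those near PAICS fell by 0.32 to 0.42. These genes were picked by likeness over the same arrays, so falls near those of the members follow from the choice.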

How the data were processed

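The 12 arrays were grouped by title. The authors deposited linear scanner intensity values and a detection p-value per probe, per the file headers, and a second table of intensity values already normalized between arrays, for which the sources name no method. The log2 of the authors' deposited normalized intensities, which are not background subtracted, was tested here. In the scanner table, rows of the 6 co-culture arrays did not follow the probe names (r with the normalized values at most 0.00105), so each row was given the probe whose normalized values it matched, and 48106 of 48106 were mutual best matches. The same step returned all 48104 monoculture rows to their own probes. After matching, r was at least 0.99986. These rows gave the detection p-values and the background-corrected alternative (neqc, offset 16).

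Kept probes had 1 gene symbol in the platform annotation (30113 of 48107 probes, with 8 having several and 17986 unnamed here), no missing value (3 probes had one) and a detection p under 0.05 on at least 3 arrays. One limma model (version 3.58.1, R 4.3.3) with a mean per group was fitted to all 12 arrays, with two-sided moderated tests, Benjamini-Hochberg adjustment over 18238 probes and a threshold of 0.05, and it was tested on simulated data. The number of arrays limits the precision. All 9 genes and their 15 probes are described. Of 5 pathway lists, each may name its 4 members with the largest change in gefitinib monoculture and any member called in another comparison. The 4 most similar genes are given for TK1, RRM1, CAD and PAICS. The members and lists were chosen with earlier results of these data known. ADSS2 was not analysed here, and SAMHD1, NT5M and AMPD2 did not pass the filter. Alternatives were background correction, scaling, the probe filter, 1 value per gene, the replicate number as a block, the groups in the fit, the variance trend and single arrays left out.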

Additional observations from a re-analysis of the deposited data

Results flagged for a closer look

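The effect of gefitinib differed between co-culture and monoculture for 10 of the 15 member probes, by the interaction term of the limma fit (adjusted p under 0.05), against 19.7% of all kept probes (9.09% higher and 10.6% lower). The differences, as co-culture minus monoculture on the log2 scale, were 1.91 for TK1, 1.68 for TYMS, 1.44 for RRM2 and 1.09 for RRM1. They were 1.40 and 1.03 for the brightest and the second DUT probe, and 0.36 and 0.47 for the brightest and the second PAICS probe. They were 0.43 for PPAT and 0.39 for the second GART probe. Each of the 10 is positive. Each effect was measured within 1 array set, and co-culture and array set cannot be told apart. Co-culture ran in EMEM, and the medium of the monoculture arms in that time is not given. A difference of medium, if there was one, cannot be told apart from co-culture either.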

How the results depend on the processing

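No called value changed sign under the alternatives run. Background correction (neqc) moved the number of probes called from 1158 to 614 for co-culture against monoculture without drug, from 1109 to 553 for gefitinib co-culture against DMSO monoculture, and from 385 to 212 for gefitinib in co-culture, and the cause was not tested. With single arrays left out, those counts ran from 701 to 1275, from 643 to 1182 and from 274 to 379, and the first was 701 to 763 without DMSO monoculture replicate 2 or 3 or co-culture replicate 2, and the second 643 to 725 without those DMSO arrays or gefitinib co-culture replicate 1. They ran from 5066 to 6026 for gefitinib in monoculture, from 5829 to 6683 for co-culture against monoculture under gefitinib and from 3134 to 3451 for the interaction, below the 3600 of all arrays. Member genes called ran from 8 to 9 lower with gefitinib in monoculture, 0 to 1 higher with gefitinib in co-culture, 0 to 1 lower in co-culture without drug, 8 to 9 higher in co-culture under gefitinib, 5 to 8 in the interaction and 0 to 1 higher in gefitinib co-culture against DMSO monoculture. With the median-centred scanner values the share of calls that were higher went from 53.3% to 41.7% for gefitinib in monoculture, from 39.2% to 25.2% in co-culture and from 44.6% to 34.3% for gefitinib co-culture against DMSO monoculture (54.8% with cyclic loess). No scaling moved the median of all probes by over 0.1 log2 units. CAD was called in monoculture (limma adjusted p = 0.0166, 0.0359, 0.0486 and 0.0322) with median-centred scanner values, probes detected on all 12 arrays, and 1 value per gene by brightest probe or by mean. Over all groups together the replicate numbers did not pair the arrays: 2 of 18 same-number pairs had correlated deviations over 0.1 (range -0.091 to 0.19), and own numbers were best in 15 of 36 cases. Both pairs over 0.1 were between co-culture and gefitinib co-culture, at 0.17 for replicate 2 and 0.19 for replicate 3, whereas replicate 1 was at -0.091 there. With the replicate block, 5963 probes were called for gefitinib in monoculture, 409 in co-culture and 3694 in the interaction, and the calls on members were those of the fit without it. Low signal over background limits the dimmest probes of DUT, GART and PAICS, of which only the DUT probe was detected on every array. The rise of that DUT probe in gefitinib monoculture kept its call with background-corrected values (0.56, limma adjusted p = 0.0275).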
